A study of Mus musculus with 48 samples.

Results

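Loss of elastin was examined in fetal mouse aorta, by setting aortas without the elastin gene Eln (knockout, KO) against wild-type (WT) aortas on embryonic day 17.5 (E17.5). The arrays were chosen by their labels: model Eln, both genotypes and E17.5, which gave 8 of the 48 arrays of the series. Each genotype held 2 arrays of ascending aorta (AA) and 2 of descending aorta (DA), and each array measured pooled RNA of 8 aortas. All of these mice were on C57BL/6. The tissue was snap frozen and 5 ng of total RNA was amplified with the NuGEN Ovation Pico WTA kit, per the labels. How the Eln allele was made and the sex of the embryos are not given in the sources used here. The labels also do not say whether AA and DA pools came from the same animals. If they did, the AA and DA arrays of a genotype would not be independent samples. The comparison over both locations treats them as independent, so its p-values could then be too small. All p-values measure the spread between these pools, and the number of pools limits the precision.

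Elastin is secreted by smooth muscle cells as soluble tropoelastin, laid down on fibrillin microfibrils with the help of fibulins and cross-linked by lysyl oxidases into the elastic lamellae of large arteries. The lamellae let the aortic wall recoil and alternate with layers of smooth muscle. Mice without elastin are known to be born with narrow, tortuous large arteries in which smooth muscle cells accumulate inside the wall, and they die shortly after birth.

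All values are log2 array signals, all differences are KO less WT on the log2 scale, and errors are standard errors (SE) from limma. The main fit compared 4 KO with 4 WT arrays with location as a blocking factor, and the differences in AA and in DA came from a fit of the 4 group means. A gene was called when its Benjamini-Hochberg adjusted p was under 0.05 over all 11989 genes tested. The array medians lay between 4.35 and 4.55. Across genes, which are not independent replicates, the 2 arrays of a group correlated at r = 0.968 to 0.986. Smooth muscle contractile genes, the check of the labelled tissue, had summed levels (log2 of the summed linear signals of their 19 tested members) of 13.93 to 13.99 in WT and 13.86 to 14.12 in KO. The smooth muscle actin gene Acta2 read 11.87 to 11.93 in WT and 11.89 to 12.05 in KO. Sex-linked genes differed between pools and, for the Y-linked Uty and Kdm5d, all 4 KO arrays lay below all 4 WT arrays. The Y-linked Uty read 5.53 and 5.35 in WT AA, 5.12 and 5.45 in WT DA, 4.70 and 4.10 in KO AA and 4.32 and 5.00 in KO DA. Kdm5d read 4.96 to 5.55 in WT and 4.27 to 4.91 in KO, and was lower in KO AA by 1.10 ± 0.17 (limma adjusted p = 0.0334). The Y-linked Eif2s3y overlapped, at 5.99 to 6.45 in WT and 5.33 to 6.33 in KO. The X-inactivation transcript Xist read 9.05 to 10.2 in WT and 9.46 to 10.7 in KO. The part of embryo sex in the differences below was not tested.

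The deleted gene was read first. Eln (probe set 17453454) read 11.16 and 10.95 in WT AA, 11.03 and 11.02 in WT DA, 4.84 and 4.65 in KO AA and 4.23 and 4.69 in KO DA. All 4 KO arrays lay far below all 4 WT arrays. Their level was below 4.88, the median of all probe sets with a single gene, so the size of the fall is limited by background. Eln fell by 6.44 ± 0.13 (95% CI −6.72 to −6.16, limma adjusted p = 1.0e-09), with −6.31 ± 0.17 in AA and −6.57 ± 0.17 in DA. Whether the probes lie in a deleted part of the gene is not given in the sources used here.

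In the main fit 111 of 11989 genes, or 0.926%, were called, 74 higher (0.617%) and 37 lower (0.309%) in KO, and 1255 had an unadjusted p under 0.05. The median difference of all tested genes was −0.015, with 5472 genes above 0 and 6517 below. Of the called genes, 28 differed by at least 1 log2 unit, 21 of them higher and 7 lower. In 82 of the 111 the 4 KO and 4 WT arrays did not overlap, against 609 of all tested genes, or 5.08%; the 82 were chosen by the same contrast. In bulk samples such as these, fewer cells of a type and less RNA per cell cannot be told apart. In 11 of the higher genes the WT mean, and in 8 of the lower genes the KO mean, was below 4.88, so the sizes of these differences are limited by background as that of Eln is. The number of calls depended on single arrays: it was 19 without replicate 1 of WT AA and also without replicate 2 of KO AA, 25 without either array of WT DA, 26 and 29 without replicate 2 and replicate 1 of KO DA, 33 without replicate 2 of WT AA, and 214 without replicate 1 of KO AA.

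A core of 15 genes was called in the main fit and in each of 15 alternative settings, among them leaving out each array in turn. Higher in KO were Col8a1, Igfbp2, Crabp2, Itgbl1, Gna14, Ttr, Ndp, Moxd1, Kank4 and Ccn2, and lower were Eln, Pi15, Clca3a2, Fmo2 and Ndst3.

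**Figure D1:**
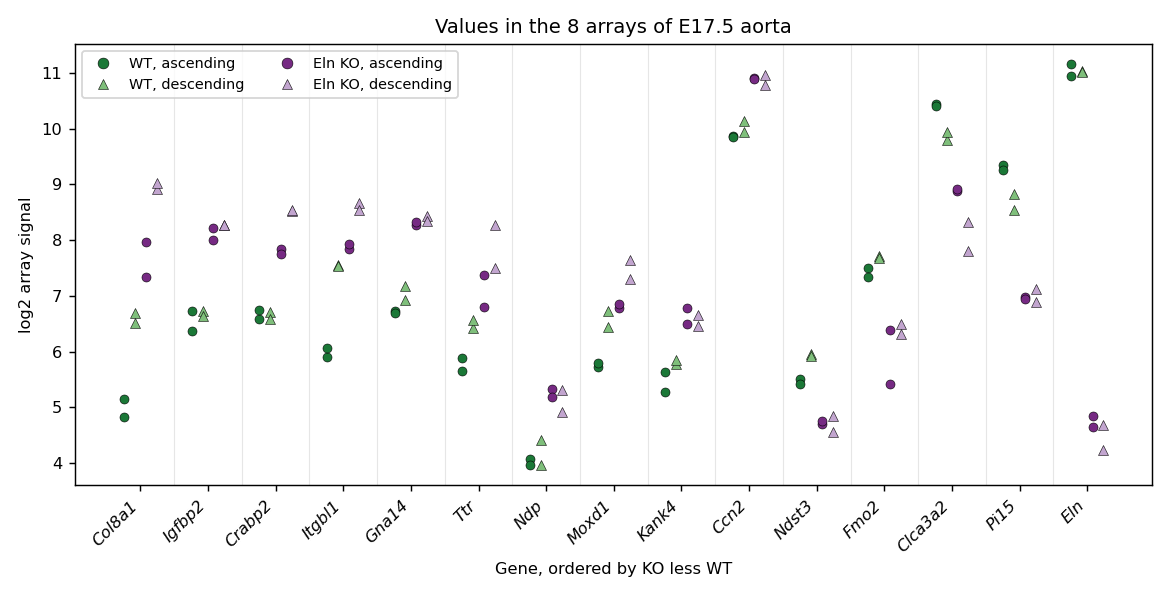
Log2 array signal (vertical axis) of the 15 genes called in every setting, ordered by KO less WT, in each of the 8 arrays. Circles are ascending and triangles descending aorta, green WT and purple Eln KO. In all 15 genes the 4 KO arrays lie on 1 side of the 4 WT arrays, and for Col8a1, Itgbl1, Gna14, Ttr and Moxd1 the descending arrays of both genotypes lie above the ascending arrays of the same genotype.

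Col8a1, which encodes a short-chain collagen of the subendothelium and of remodelling vessel walls, had the largest rise. It read 4.82 and 5.15 in WT AA, 6.69 and 6.51 in WT DA, 7.35 and 7.97 in KO AA and 8.91 and 9.03 in KO DA. Each KO array was above every WT array, and DA was above AA in both genotypes. Col8a1 rose by 2.52 ± 0.15 (5.75-fold, 95% CI 2.19 to 2.85, limma adjusted p = 4.03e-05), with 2.67 ± 0.21 in AA and 2.38 ± 0.21 in DA.

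Igfbp2, a secreted binding protein of insulin-like growth factors, read 6.38 and 6.72 in WT AA, 6.73 and 6.64 in WT DA, 8.01 and 8.21 in KO AA and 8.26 and 8.27 in KO DA. The groups were well apart and the locations alike. The rise was 1.57 ± 0.11 (limma adjusted p = 9.28e-05), with 1.56 in AA and 1.58 in DA. None of the other 12 tested genes of the insulin-like growth factor list was called, beside 0.926% over all tested genes. Igfbp3 differed by 0.58, Igfbp5 by −0.43, Igfbp4 by −0.42 and the growth factor genes Igf1 and Igf2 by −0.22 and −0.05.

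Crabp2, which carries retinoic acid inside the cell to its nuclear receptor, read 6.59 and 6.75 in WT AA, 6.72 and 6.59 in WT DA, 7.84 and 7.76 in KO AA and 8.52 and 8.53 in KO DA. The KO DA arrays were the highest and the WT arrays lay close together. Crabp2 rose by 1.5 ± 0.15 (limma adjusted p = 0.00164). The difference of 1.88 ± 0.13 in DA was larger than that of 1.13 ± 0.13 in AA, but no gene passed the test of the difference between locations. Of 11 tested genes of retinoic acid handling Crabp2 was the only one called, beside 0.926% over all tested genes. The median of the list was −0.017. The synthesis enzyme gene Aldh1a2 differed by −0.45 and the receptor gene Rarb by −0.34.

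Gna14, which encodes an alpha subunit of the Gq class of G proteins, read 6.73 and 6.70 in WT AA, 7.17 and 6.92 in WT DA, 8.27 and 8.32 in KO AA and 8.43 and 8.34 in KO DA. The groups were separated by more than 1 log2 unit. It rose by 1.46 ± 0.10 (limma adjusted p = 9.28e-05). Ndp encodes norrin, a ligand of a Frizzled receptor in vascular development, and rose by 1.08 ± 0.14 from 3.96 to 4.42 in WT to 4.91 to 5.32 in KO. The WT arrays were all below 4.88, so the gene entered the test through its KO level and the size is limited by background. Moxd1, a relative of dopamine beta-hydroxylase, rose by 0.97 ± 0.11. It read 5.72 to 6.73 in WT and 6.78 to 7.65 in KO, with DA above AA in both. Kank4, of a family of adaptor proteins at cell adhesions, rose by 0.97 ± 0.13 and read 5.28 to 5.84 in WT and 6.46 to 6.77 in KO.

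Among the falls, Pi15, a secreted protein of the peptidase inhibitor family, read 9.36 and 9.27 in WT AA, 8.54 and 8.82 in WT DA, 6.97 and 6.95 in KO AA and 7.13 and 6.89 in KO DA. AA was above DA in WT, while the 4 KO arrays lay within a narrow range. Pi15 fell by 2.01 ± 0.15 (4.03-fold, limma adjusted p = 1.35e-04), with −2.35 ± 0.14 in AA and −1.67 ± 0.14 in DA.

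Clca3a2, of a family of calcium-activated chloride channel regulators, read 10.44 and 10.41 in WT AA, 9.79 and 9.93 in WT DA, 8.89 and 8.92 in KO AA and 8.32 and 7.81 in KO DA. All KO arrays were lower than all WT arrays. It fell by 1.66 ± 0.12 (limma adjusted p = 1.56e-04). Its neighbour in name Clca3a1 had lower signal, 4.70 to 5.04 in WT and 3.77 to 4.40 in KO, and fell by 0.91 ± 0.13. That call was lost in 7 of 15 settings, and since these genes are close relatives, it is uncertain how far their probes share signal.

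Fmo2, a flavin-containing monooxygenase gene, read 7.50 and 7.34 in WT AA, 7.71 and 7.68 in WT DA, 5.41 and 6.39 in KO AA and 6.50 and 6.31 in KO DA. Replicate 1 of KO AA was the lowest array. Fmo2 fell by 1.41 ± 0.18 (limma adjusted p = 0.0093). Ndst3, an enzyme that modifies heparan sulfate chains, read 5.41 to 5.95 in WT and 4.56 to 4.84 in KO and fell by 0.98 ± 0.12 (limma adjusted p = 0.0093), with all KO arrays below 4.88. The remaining falls named by size were smaller or less stable. Bche, the enzyme butyrylcholinesterase, fell by 0.93 ± 0.13 and lost its call in 4 of 15 settings, and the neuropeptide Y receptor gene Npy1r fell by 1.07 ± 0.14 and lost its call in 1. Vwa3a (−1.01), the anion exchanger gene Slc26a7 (−1.13), the B cell chemokine gene Cxcl13 (−0.87), the GABA receptor subunit gene Gabra3 (−0.84) and the potassium channel gene Kcna5 (−0.76) were also called, and each lost its call in 7 to 11 of 15 settings.

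The genes of elastic fibre assembly were examined next, to see whether the partners of elastin changed without it. Of 19 tested members, Eln was lower and Ltbp2 higher, and 17 were not called, beside 0.926% called over all tested genes. The median of the list was 0.13, beside −0.015 for all tested genes. Ltbp2, a microfibril-associated protein, read 8.42 and 8.60 in WT AA, 8.13 and 8.15 in WT DA, 8.87 and 9.20 in KO AA and 8.65 and 8.72 in KO DA. Every KO array was above every WT array, by a small margin. Ltbp2 rose by 0.54 ± 0.10 (limma adjusted p = 0.0467), a call lost in 10 of 15 settings.

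The cross-linking enzyme gene Lox read 10.74, 10.79, 10.50 and 10.60 in WT and 11.03, 11.03, 10.92 and 10.83 in KO. Its groups did not overlap, but the difference of 0.29 ± 0.09 was not called (limma adjusted p = 0.182). Fbln5, a fibulin that binds elastin and integrins, differed by 0.15, and the microfibril genes Fbn2, Mfap2 and Mfap4 by 0.31, 0.13 and 0.18. Efemp1, which encodes fibulin-3, differed by −0.58 over both locations without a call. In AA alone it fell by 0.93 ± 0.13 (limma adjusted p = 0.0255), from 8.65 and 8.68 to 7.82 and 7.64.

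Among fibrillar and associated collagens, 2 of 17 tested members were higher, Col8a1 and Col11a1, and none was lower, beside 0.617% called higher over all tested genes. The list leaned the other way, with 13 members below 0, beside 6517 of all 11989, and a median of −0.12. Col11a1, a minor fibrillar collagen that is best known from cartilage, read 5.15 and 5.39 in WT AA, 6.24 and 6.30 in WT DA, 5.63 and 6.82 in KO AA and 7.47 and 7.38 in KO DA. Replicate 1 of KO AA lay among the WT arrays. Col11a1 rose by 1.05 ± 0.21 (limma adjusted p = 0.0487), and the call was lost in 10 of 15 settings. The major fibrillar collagens of the wall did not pass the test: Col1a1 differed by −0.25, Col1a2 by −0.02 and Col3a1 by −0.36.

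Of 12 collagen processing genes, 1 was higher, beside 0.617% over all tested genes. This was Plod2, a lysyl hydroxylase of collagen telopeptides. It read 7.54 to 7.93 in WT and 8.31 to 8.61 in KO and rose by 0.65 ± 0.11 (limma adjusted p = 0.0279, lost in 10 of 15 settings). The prolyl hydroxylase genes P4ha3 and P3h2 differed by 0.44 and 0.53 without a call. The 13 basement membrane genes had a median of −0.020 and 0 calls, and so did the 9 small leucine-rich proteoglycan genes, with a median of 0.038.

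Matricellular proteins and adhesion ligands, which sit in the matrix and signal to cells through surface receptors, had 2 members higher and 1 lower among 14, beside 0.926% called over all tested genes. Ccn2, also known as connective tissue growth factor, read 9.87 and 9.85 in WT AA, 10.14 and 9.94 in WT DA, 10.91 and 10.90 in KO AA and 10.97 and 10.78 in KO DA. The groups were apart by more than their own ranges. Ccn2 rose by 0.94 ± 0.10 (limma adjusted p = 0.00279). A second probe set of the gene with a low mean signal of 5.33 differed by −0.13.

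Vtn, the adhesion protein vitronectin, rose by 0.70 ± 0.13 and Tnxb, tenascin X, fell by 0.80 ± 0.14, and each call was lost in 10 of 15 settings. Vtn is also made by liver and belongs to the liver-type genes described below. Ccn5, a relative of Ccn2, differed by 0.90 over both locations without a call (limma adjusted p = 0.0569) and rose by 1.33 ± 0.18 in AA alone. The list had a median of 0.28, and its summed level was 13.07 to 13.16 in WT and 13.30 to 13.47 in KO.

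The list of integrins, the receptors through which cells hold the matrix, and their relatives had 3 of 16 members higher, 2 of them receptor chains, and none lower. Over all tested genes 0.617% were called higher. In the list 13 members were above 0, beside 5472 of all 11989, at a median of 0.14. Itgbl1, a secreted protein related to integrin beta chains, read 5.91 and 6.06 in WT AA, 7.56 and 7.53 in WT DA, 7.84 and 7.94 in KO AA and 8.68 and 8.55 in KO DA. KO AA lay just above WT DA. Itgbl1 rose by 1.49 ± 0.16 (limma adjusted p = 0.00301), with 1.91 ± 0.13 in AA and 1.06 ± 0.13 in DA. Itga11, the alpha chain of a collagen receptor, read 5.25 and 5.65 in WT AA, 6.19 and 6.33 in WT DA, 5.98 and 6.79 in KO AA and 7.63 and 7.75 in KO DA. Replicate 1 of KO AA was below both WT DA arrays, and within each location KO was above WT. Itga11 rose by 1.18 ± 0.18 (limma adjusted p = 0.023), a call lost in 7 of 15 settings, and Itgb5, the beta chain of a vitronectin receptor, by 0.56 ± 0.09 (limma adjusted p = 0.0249, lost in 10).

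Of 17 matrix proteases and inhibitors, the protease gene Adamts8 was higher and the protease gene Adamts1 and the inhibitor gene Timp4 were lower, beside 0.926% called over all tested genes. Adamts8 read 5.85 to 6.09 in WT, 6.55 and 6.72 in KO AA and 7.37 and 7.0 in KO DA, and rose by 0.91 ± 0.15. Adamts1 fell by 0.50 ± 0.10 and Timp4 by 0.77 ± 0.15. These calls were lost in 9, 11 and 10 of 15 settings.

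**Figure D2:**
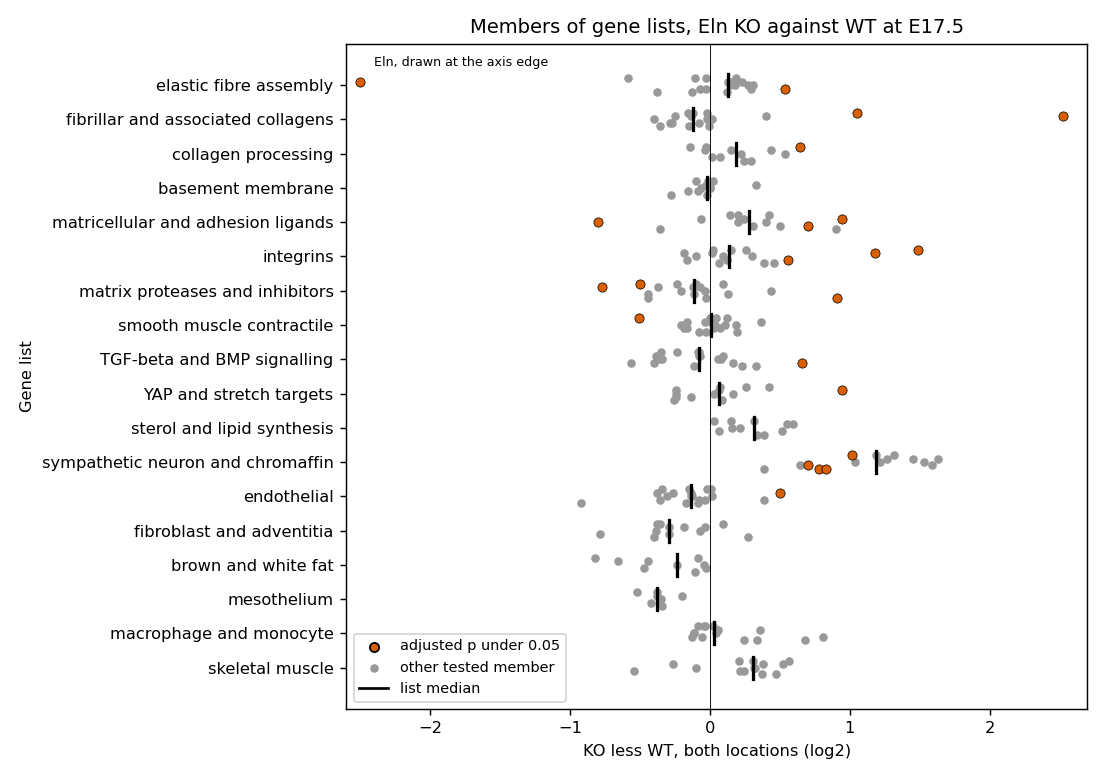
KO less WT over both locations (horizontal axis, log2) for the tested members of 18 gene lists, with 1 dot per gene. Orange dots are genes with an adjusted p under 0.05, grey dots the other members, and black bars list medians; Eln is drawn at the left edge instead of at −6.44. The sympathetic and chromaffin list stands at a median of 1.19, while basement membrane and smooth muscle lists are centred near 0.

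Smooth muscle contractile genes had 1 call among 19 tested members, beside 0.926% called over all tested genes. Synpo2, an actin-bundling protein, read 8.13 and 8.24 in WT AA, 7.59 and 7.42 in WT DA, 7.71 and 7.59 in KO AA and 7.16 and 6.93 in KO DA. KO was below WT within each location, though the ranges over both locations overlapped. Synpo2 fell by 0.50 ± 0.10 (limma adjusted p = 0.047, lost in 10 of 15 settings). The myosin heavy chain gene Myh11 differed by −0.08 (95% CI −0.35 to 0.19), Acta2 by 0.04 (95% CI −0.15 to 0.24) and Tagln by 0.01, and the median of the list was 0.011.

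Among 19 genes of TGF-beta and BMP signalling 1 was higher, beside 0.617% over all tested genes. This was Pmepa1, a target and inhibitor of the TGF-beta pathway. It read 8.71 to 9.12 in WT and 9.36 to 9.66 in KO and rose by 0.66 ± 0.11 (limma adjusted p = 0.0321, lost in 9 of 15 settings). The median of the list was −0.081, and the BMP targets Id1, Id2 and Id3 differed by −0.23, −0.38 and −0.37 without a call. Of 13 targets of YAP, a transcription coactivator that responds to stretch, Ccn2 alone was called, beside 0.926% over all tested genes. Ccn1 differed by 0.42 and Ankrd1 by −0.24, and the list median was 0.062.

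Among the 15 immediate early genes Ier3 rose by 0.59 ± 0.10 (lost in 10 of 15 settings), and among the 13 glucocorticoid response genes the metallothionein gene Mt2 rose by 0.76 ± 0.15 (lost in 9). Ier3 and Mt2 were the only calls of these lists, beside 0.926% called over all tested genes. The list medians were 0.017 and −0.15. The 28 cell cycle genes had 0 calls at a median of 0.011, and lists of hypoxia and glycolysis (10 genes), unfolded protein and amino acid stress (12), renin-angiotensin and vasoactive genes (11), outflow tract regulators (19), Wnt and Notch (14), interferon response (5), acute phase (6) and the respiratory chain (18) also had 0 calls. In sterol and lipid synthesis all 11 tested genes were above 0, beside 5472 of all 11989. Their median was 0.31, and 0 were called. Cyp51 (0.59), Insig1 (0.55) and Scd1 (0.52) had the largest differences.

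Several genes typical of liver were among the rises. The list described here was collected after they were noticed in these data, so its counts support nothing. The list held 25 genes of secreted liver proteins and hepatocytes, of which 17 were tested, 10 were higher, 0 lower and 7 not called, at a median of 1.06. The secreted protein genes Afp, Fgg, Alb, Ttr, Serpina1e, Apoa1, Apoa2, Apoc1 and Vtn and the fatty acid binding protein gene Fabp1 were the 10. The summed level of the list was 9.58 to 10.00 in WT and 10.33 to 11.50 in KO, with the highest value in replicate 1 of KO DA.

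Alb, which encodes serum albumin, read 6.51 and 6.48 in WT AA, 7.48 and 7.21 in WT DA, 7.85 and 8.23 in KO AA and 9.0 and 8.17 in KO DA. Each KO array was above each WT array, and replicate 1 of KO DA stood highest. Alb rose by 1.40 ± 0.18 (limma adjusted p = 0.0093), with 1.55 ± 0.25 in AA and 1.24 ± 0.25 in DA. Without replicate 1 of KO DA the rise was 1.26 (limma adjusted p = 0.0313), and the call was lost in 1 of 15 settings.

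Afp, the fetal albumin-like protein of liver and yolk sac, read 5.15 and 5.82 in WT AA, 6.67 and 6.14 in WT DA, 7.10 and 7.70 in KO AA and 8.82 and 7.39 in KO DA. It rose by 1.81 ± 0.29 (limma adjusted p = 0.0249). Without replicate 1 of KO DA the difference was 1.54 and was not called (limma adjusted p = 0.059), and the call was lost in 9 of 15 settings. Ttr, a carrier of thyroid hormone and retinol-binding protein, read 5.89 and 5.66 in WT AA, 6.42 and 6.57 in WT DA, 6.81 and 7.38 in KO AA and 8.27 and 7.51 in KO DA. Ttr rose by 1.36 ± 0.18 (limma adjusted p = 0.0093) and, without that array, by 1.20. The fibrinogen chain gene Fgg rose by 1.55 ± 0.24, the protease inhibitor gene Serpina1e by 1.21 ± 0.15 and Fabp1 by 1.20 ± 0.23, of which Fabp1 was not called without that array (0.96, limma adjusted p = 0.0776). The calls of Fgg, Serpina1e and Fabp1 were lost in 8, 1 and 11 of 15 settings. Fgg read 3.99 to 4.39 and Fabp1 3.16 to 3.94 in WT, all below 4.88, so both entered the test through their KO level and their sizes are limited by background. Hnf4a, the liver transcription factor, differed by 0.18, and the urea cycle gene Cps1 by 0.14. Hnf4a read 4.455 to 4.701 in WT and 4.407 to 5.215 in KO, and Cps1 4.55 to 4.748 and 4.265 to 5.028. Both were near background and entered the test through KO AA alone, so their small differences do not show that hepatocyte genes were unchanged. The part of liver cells or of plasma in these values was not tested.

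The promoters of these genes are shown because HNF1, a liver transcription factor, is known to act at several of them. The half-site GTTAAT was searched on both strands in the 250 bases before the start of each gene in RefSeq promoters of mouse build GRCm38.p6. It was found in 5 of the 8 liver-type higher genes with a promoter in the table (62.5%), namely Afp, Alb, Fabp1, Serpina1e and Vtn. Of 9423 tested genes with a promoter, 448 had it (4.75%), and so did 2 of the 50 higher genes outside the liver-type list (4%) and 0 of 29 lower genes. A match is a run of letters and not a site of binding. The genes were collected as liver genes that rose here, and the motif was chosen for its known part in liver. The high share among them was thus largely set beforehand and supports nothing about the loss of Eln. Only promoters with a match are printed. The stretches below run 5′ to 3′ on the strand of the gene, with the half-site in capitals, for Alb (chr5:90460750-90460869, plus strand), Afp (chr5:90490594-90490713, plus strand), Serpina1e (chr12:103956898-103957017, minus strand) and Fabp1 (chr6:71199759-71199878, plus strand).
Alb: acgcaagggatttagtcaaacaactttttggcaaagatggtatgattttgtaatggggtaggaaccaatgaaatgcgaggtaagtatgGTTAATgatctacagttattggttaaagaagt
Afp: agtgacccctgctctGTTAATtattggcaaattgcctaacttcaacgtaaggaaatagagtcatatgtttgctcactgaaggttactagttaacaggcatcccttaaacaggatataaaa
Serpina1e: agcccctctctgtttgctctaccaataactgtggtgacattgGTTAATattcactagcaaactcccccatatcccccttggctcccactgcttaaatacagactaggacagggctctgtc
Fabp1: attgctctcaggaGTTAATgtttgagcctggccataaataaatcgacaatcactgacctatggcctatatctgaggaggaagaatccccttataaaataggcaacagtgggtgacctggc
For comparison, GGAATG, the letters bound by TEAD partners of YAP, was found in 11 of 58 higher (19%), 7 of 29 lower (24.1%) and 1213 of all 9423 genes (12.9%). TGANTCA, the AP-1 motif, was found in 3 higher (5.17%), 4 lower (13.8%) and 500 of all (5.31%).

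Genes of sympathetic neurons and chromaffin cells, which lie beside the aorta, were above 0 in 15 of 15 tested members. Of all 11989 tested genes 5472 were above 0. The list median was 1.19, with 0.95 in AA and 1.22 in DA. Beside 0.617% over all tested genes, 4 members were called higher: Chga, Scg2, Uchl1 and Slc6a2. The summed level of the list was 9.61 and 9.68 in WT AA, 11.06 and 10.21 in WT DA, 9.70 and 11.19 in KO AA and 11.97 and 11.49 in KO DA. The genotypes overlapped, since replicate 1 of KO AA lay with the WT AA arrays and WT DA was higher than WT AA.

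Chga, the secretory granule protein chromogranin A, read 4.72 and 4.59 in WT AA, 5.72 and 5.07 in WT DA, 5.21 and 5.72 in KO AA and 6.77 and 6.46 in KO DA. It rose by 1.01 ± 0.17 (limma adjusted p = 0.0321). Uchl1, a ubiquitin hydrolase of neurons, rose by 0.83 ± 0.16, the noradrenaline transporter gene Slc6a2 by 0.78 ± 0.14 and the granule protein gene Scg2 by 0.70 ± 0.13. Each of the 4 calls was lost in 9 or 10 of 15 settings, and without replicate 1 of KO DA none was called (limma adjusted p = 0.0809 to 0.101), at differences of 0.91 for Chga, 0.75 for Uchl1 and Slc6a2 and 0.72 for Scg2. The members with larger but more variable differences did not pass, such as the noradrenaline synthesis genes Th (1.04 ± 0.29) and Dbh (1.53 ± 0.52) and the granule gene Chgb (1.63 ± 0.52). Dbh read 4.28 in replicate 1 of KO AA and 7.05 in replicate 2. The part of neural tissue in the pools was not tested.

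Other cell types of the wall and its surroundings had few calls. Over all tested genes 0.926% were called, and 6517 of 11989 were below 0. Of 19 endothelial genes the transcription factor gene Erg rose by 0.50 ± 0.08 (lost in 10 of 15 settings), at a list median of −0.13 and 15 members below 0. The summed endothelial level was 11.53 to 12.04 in WT and 11.31 to 11.92 in KO. Fibroblast and adventitia genes had 0 calls among 12, 10 members below 0 and a median of −0.29, with −0.50 in AA and −0.087 in DA. Their summed level was 12.78 to 13.00 in WT, 12.36 and 12.53 in KO AA and 12.76 and 12.79 in KO DA. All 9 brown and white fat genes and all 7 mesothelial genes were below 0, at medians of −0.24 and −0.38, with 0 calls. The summed fat level was 10.65 to 11.49 in WT and 10.25 to 11.03 in KO, and the mesothelial level 9.39 to 9.88 and 8.94 to 9.46.

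Macrophage genes had 0 calls among 16, beside 0.926% over all tested genes, and a median of 0.033. Lists of Schwann cells (5 tested genes), pericytes (8), erythroid cells (4), platelets (5), lymphocytes (1) and epithelium (8) also had 0 calls. The summed erythroid level did not overlap, at 7.095 to 7.527 in WT and 7.592 to 7.85 in KO. All 4 erythroid genes were above 0, beside 5472 of all 11989, at a median of 0.38. Of 15 heart muscle genes Tnnc1, the slow troponin C gene, rose by 1.12 ± 0.21 from 9.32 to 10.19 in WT to 10.61 to 11.41 in KO, against a list median of −0.14. That call was lost in 12 of 15 settings. Of 9 cartilage genes Chad, a leucine-rich protein of cartilage matrix, was called. It read 5.83 and 5.24 in WT AA, 5.87 and 5.81 in WT DA, 6.21 and 6.56 in KO AA and 7.60 and 7.32 in KO DA. It rose by 1.24 ± 0.19 (limma adjusted p = 0.021, lost in 8 of 15 settings), and the summed level of the list was 9.46 to 10.09 in WT and 10.00 to 10.23 in KO. The skeletal muscle genes, with 0 calls among 14, had medians of −0.54 in AA and 1.11 in DA, and their summed level was 12.17 in replicate 1 of KO DA against 9.37 to 10.75 in the other 7 arrays. The part of these cells in the results was not tested.

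**Figure D3:**
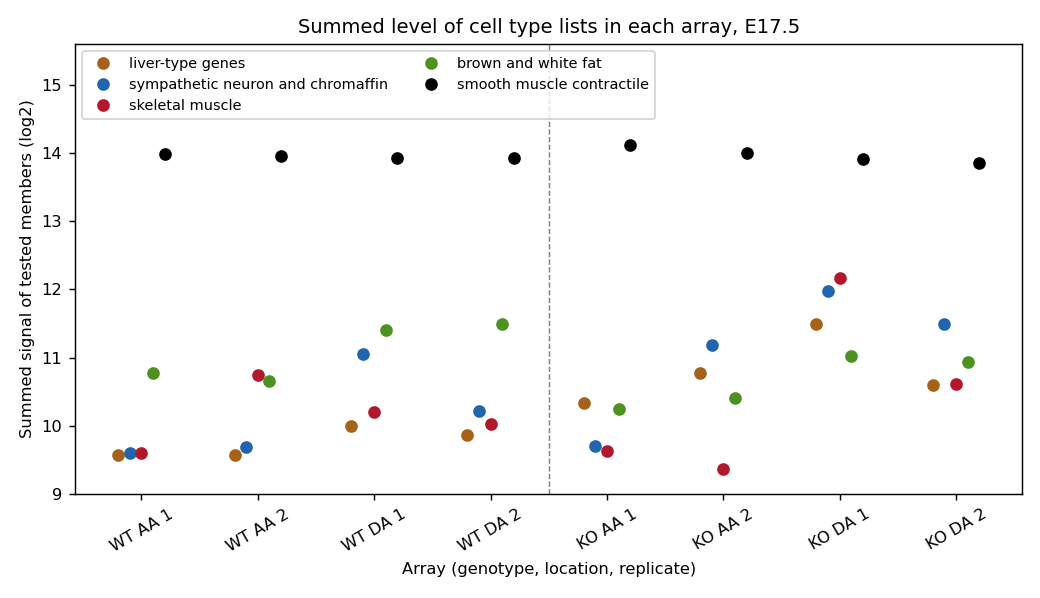
Summed level (vertical axis, log2 of the summed linear signals of tested members) of 5 gene lists in each of the 8 arrays, with WT left and Eln KO right of the dashed line. Smooth muscle stays between 13.86 and 14.12, liver-type genes are at 10.33 or higher in every KO array, and skeletal muscle reaches 12.17 in replicate 1 of KO DA.

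The effect was then set side by side in the 2 locations. In AA 42 genes were called (0.35%), 18 higher (0.15%) and 24 lower (0.2%). In DA 16 were called (0.133%), 12 higher (0.1%) and 4 lower (0.0334%). The 4 falls in DA were Eln, Clca3a2, Pi15 and Ndst3. Col8a1, Igfbp2, Crabp2, Itgbl1, Gna14, Pi15, Clca3a2 and Eln were called in each location. Across all tested genes the AA and DA differences correlated at r = 0.209, and at 0.170 without Eln, where genes are not independent replicates. All 111 genes called over both locations had the same sign in each, a direction that averaging the locations favours, and 56 of them were larger in AA.

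**Figure D4:**
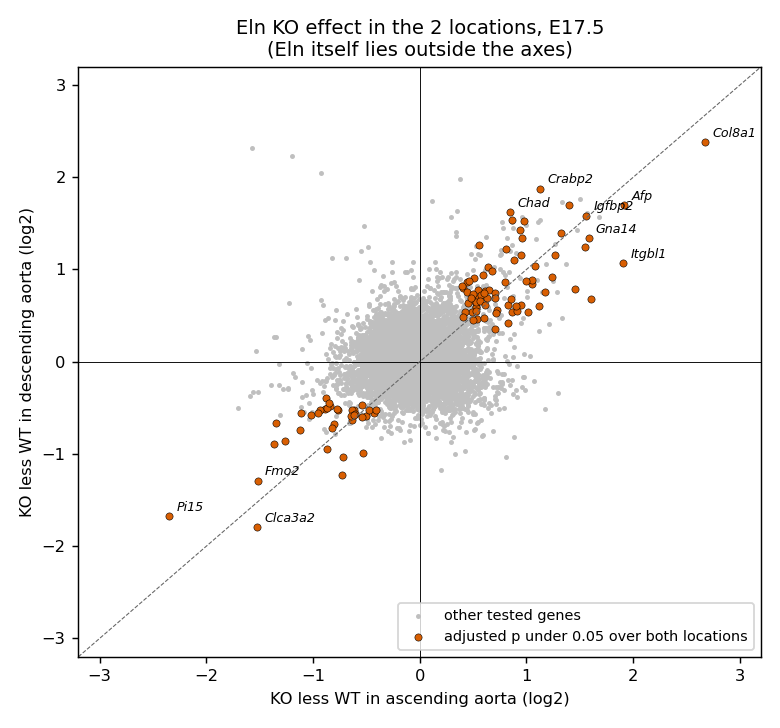
KO less WT in ascending aorta (horizontal axis, log2) against descending aorta (vertical axis, log2), with 1 dot per tested gene. Orange dots are the genes called over both locations, grey dots the others, the dashed line marks equal effects, and Eln at −6.31 and −6.57 lies outside the axes. Col8a1 and Pi15 are the orange dots farthest from the origin.

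Some falls were called in AA alone. Enpp3, an ectonucleotidase, read 7.12 and 7.33 in WT AA and 5.32 and 5.73 in KO AA, but 6.15 and 6.57 in WT DA and 5.88 and 5.83 in KO DA. The 4 KO arrays were alike and the WT AA arrays the highest. It fell by 1.71 ± 0.18 in AA (limma adjusted p = 0.00574) and differed by −0.50 in DA. The AA call was lost without replicate 1 and without replicate 2 of WT AA, at adjusted p values of up to 0.0736. Arap2, a GTPase-activating protein gene, fell by 1.59 ± 0.12 in AA (limma adjusted p = 8.07e-04) and differed by −0.37 in DA. Its 4 KO arrays (3.87 to 3.94) and both WT DA arrays (4.21 and 4.41) were below 4.88, so background limits the size of the difference in both locations. The mesenchymal transcription factor gene Osr2 fell by 1.54 ± 0.23 in AA (limma adjusted p = 0.0293) and differed by 0.12 in DA, and the AA call was lost in 7 of 13 settings. It read 6.55 and 7.10 in WT AA and 4.19 to 5.54 in the other 6 arrays.

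The endothelial surface gene Emcn and the adventitial gene Dpt, which were not chosen by rule but after their values were seen, fell by 1.52 ± 0.16 and 1.31 ± 0.15 in AA and differed by −0.33 and −0.26 in DA. Glp1r, the glucagon-like peptide 1 receptor gene, rose by 1.60 ± 0.16 in AA (limma adjusted p = 0.00375) and differed by 0.68 in DA. It read 4.79 to 5.09 in WT, 6.65 and 6.37 in KO AA and 5.58 and 5.66 in KO DA.

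The difference between the locations was tested directly. Of 11989 genes 0 were called in limma, the smallest adjusted p was 0.272, and 1576 had an unadjusted p under 0.05. Emcn, with a difference of effects of 1.19 ± 0.22, was among the genes at that smallest adjusted p. With the median of all genes at −0.074 in AA and 0.041 in DA, a gene's effect differed by 0.13 at the median. Hox genes, which mark position along the body axis, had a median of 0.39 in AA and −0.19 in DA, with 0 of 14 called. Their summed level was 8.79 and 8.64 in WT AA, 9.80 and 10.02 in WT DA, 8.74 and 9.17 in KO AA and 9.80 and 9.78 in KO DA, so that DA was above AA in both genotypes.

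The same fit was run on the Eln arrays of postnatal day 1 (P1) and on the E17.5 arrays of the Efemp2 and Lox models, which lack fibulin-4 and lysyl oxidase, over the same genes and with no array in common. Efemp2 mice were C57BL/6 and Lox mice B6 albino. At P1 21 genes were higher (0.175%) and 2 lower (0.0167%) in Eln KO. Of the 74 genes higher at E17.5, 10 (13.5%) were among them, which is 47.6% of the P1 list. They were Col8a1, Igfbp2, Itgbl1, Itga11, Chad, Ltbp2, Moxd1, Dsp, Cck and Ptprz1. Of the lower genes 1 was shared, Eln. Ltbp2 rose by 1.83 at P1 and 0.54 at E17.5, and Igfbp2 by 2.48 and 1.57, but their change with age did not pass the test (limma adjusted p = 0.0718 and 0.129). Pi15 differed by −0.79 at P1 without a call.

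Of the 111 genes, 87 (78.4%) had the same sign at P1, beside 48.5% of all tested genes. The liver-type list had a median of −0.68 at P1 and of 1.06 at E17.5, where its members were chosen for their rise. Alb differed by −0.99 at P1 and Afp by −1.20, both without a call. Serpina1e differed by −0.76 at P1, and its change of effect between the ages of −1.97 ± 0.28 passed the test (limma adjusted p = 0.0157), a call lost in 6 of 11 settings. The change of effect was −2.38 ± 0.44 for Alb and −3.00 ± 0.55 for Afp (limma adjusted p = 0.0639 each).

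In that test 10 genes were called (0.0834%), 6 with a higher (0.05%) and 4 with a lower effect at P1. Its alternative settings left out single Eln arrays of E17.5 but no P1 array. Trp53inp1, a p53 target gene, differed by −0.57 at E17.5 and 1.06 at P1, and Hectd2 by 0.23 and 1.79. The transcription factor gene Zbtb16, known to respond to glucocorticoids, differed by −0.23 and 1.31. Arrdc3 differed by −0.13 and 1.29, Eef2k by −0.13 and 1.26, and Pla2g10os by 0.31 and −2.15. In the fit of the P1 arrays Pla2g10os had an SE of 1.23 and was not called (limma adjusted p = 0.551). Of 11 settings, the call was lost in 5 for Trp53inp1 and Zbtb16, 7 for Hectd2 and Pla2g10os, 8 for Arrdc3 and 9 for Eef2k. The sixth higher gene was the amino acid transporter gene Slc1a4, and the other lower genes were the predicted genes Gm2046 and 4932415M13Rik. The WT DA arrays at P1 had a raised median of probe sets without a gene name, 4.35 each, against 3.73 to 4.08 in the other P1 arrays, and the median gene changed its effect by 0.19. The part of this background in the change between ages was not tested.

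In Efemp2 KO at E17.5 7 genes were called in a fit of its own (0.0584%), 4 higher (0.0334%) and 3 lower (0.025%), and in Lox KO 4 were higher (0.0334%) and 0 lower, with 816 at an unadjusted p under 0.05. Col8a1 was higher in each model, by 2.45 in Efemp2 KO and 2.27 in Lox KO. Ccn2 and Igfbp2 were also higher in Lox KO, by 1.05 and 1.16, and Npy1r and Slc26a7 lower in Efemp2 KO, by 1.14 and 1.63 log2 units. Among the 111 genes, the sign was the same for 100 (90.1%) in Efemp2 KO, beside 59.8% of all tested genes, and for 91 (82%) in Lox KO, beside 51.9%. Pi15 differed by −1.10 and −1.16 in these models and Clca3a2 by −1.31 and −1.24, without a call. Liver-type genes had a median of 0.71 in Efemp2 KO and −0.21 in Lox KO.

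The difference between the Eln and the Efemp2 effect was called for 6 genes (0.05%), 1 higher (0.00834%) and 5 lower (0.0417%). Crabp2 rose more in Eln KO, by 1.11 ± 0.17 (limma adjusted p = 0.0475), since it differed by 0.40 in Efemp2 KO, and the call was lost in 10 of 11 settings. Apart from Eln, the genes with a lower effect in Eln KO were the acute phase gene Serpina3n, the chemokine gene Ccl2, Plac8 and the cytokine receptor gene Il17ra. Serpina3n differed by −0.13 in Eln KO and 2.75 in Efemp2 KO, Ccl2 by 0.24 and 2.52, Plac8 by −0.48 and 0.81 and Il17ra by −0.23 and 0.81. Of 11 settings, the call was lost in 10 for Il17ra, 4 for Ccl2 and 3 each for Serpina3n and Plac8. Between the Eln and the Lox effect Eln alone was called (0.00834%). The alternative settings of both contrasts left out single Eln arrays of E17.5 but no Efemp2 or Lox array.

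**Figure D5:**
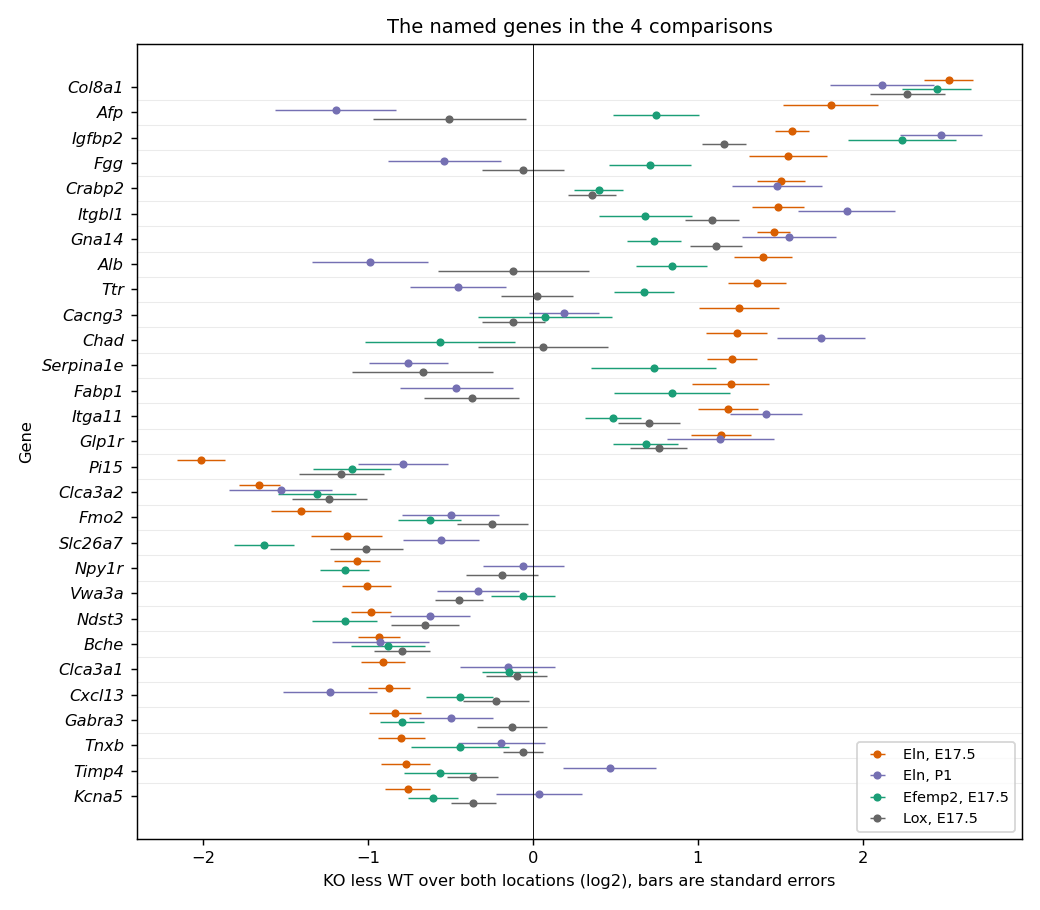
KO less WT over both locations (horizontal axis, log2) with standard errors, for the genes named by size of change in Eln KO at E17.5 (orange), in Eln KO at P1 (violet), Efemp2 KO at E17.5 (green) and Lox KO at E17.5 (grey), each from a fit of its own 8 arrays. Col8a1 lies above 2 in all 4 comparisons, while Afp, Alb and Serpina1e lie above 1 in Eln KO at E17.5 and below 0 in Eln KO at P1; Eln is not drawn.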

How the data were processed

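The authors deposited 1 table of log2 signals per probe set for 48 arrays, made with RMA in Affymetrix Expression Console per the submitters' processing notes. Versions, array name and genome build are not given in the sources used here. Gene names came from the platform annotation: 23521 of 41345 probe sets had 1 gene symbol, 1814 several and 16010 none, and the last 2 kinds were fitted apart. Each of 22180 genes was represented by its probe set with the highest mean over the 8 arrays. The 11989 genes tested had at least 1 of the 4 group means at or above 4.88, the median of the probe sets with 1 symbol.

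Models were fitted with limma 3.58.1 in R 4.3.3, with moderated variances from eBayes and Benjamini-Hochberg adjustment at 0.05. The main fit had genotype and location as terms and 5 residual degrees of freedom. AA, DA and their difference came from 4 group means, and differences from Eln P1, Efemp2 E17.5 and Lox E17.5 from the 16 arrays of both comparisons. Array medians differed between these sets, at 4.35 to 4.55, 4.52 to 4.89, 4.36 to 4.47 and 3.71 to 3.82 in this order with Eln E17.5 first, so only differences within a set were compared. The members and the 41 gene lists (646 genes, 504 tested) were chosen with earlier results of these data known, and the liver-type list after seeing these fits.

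Named genes were the 15 largest called differences in each direction over both locations, up to 5 in each direction for the other contrasts, and up to 6 called members of each list (without a call, up to 3 with the highest WT mean could be named). Small RNAs, predicted genes and odorant or pheromone receptors were passed over by name except where stated. Further list members, and genes called in a single location or between ages, were named after their values were seen. Alternatives were no filter, cyclic loess, all 48 arrays in the fit, trend and robust variances, replicate blocks (statmod 1.5.0) and 4 group means. Each of the 8 Eln E17.5 arrays was also left out in turn, but no P1, Efemp2 or Lox array. The fit was tested on simulated data with known changes.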

Additional observations from a re-analysis of the deposited data

Results flagged for a closer look

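The effect of Eln loss differed between P1 and E17.5, by the test of the difference itself, for 7 named genes. The P1 effect less the E17.5 effect was 1.63 for Trp53inp1, 1.56 for Hectd2, 1.54 for Zbtb16, 1.42 for Arrdc3 and 1.39 for Eef2k. It was −1.97 for Serpina1e and −2.46 for Pla2g10os. Each of these calls was lost in 5 to 9 of 11 settings, none of which left out a P1 array. At P1 alone Pla2g10os differed by −2.15 ± 1.23 without a call.

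The effect at E17.5 differed between Eln KO and Efemp2 KO for 6 genes. Eln KO less Efemp2 KO was −6.90 for Eln, 1.11 for Crabp2, −2.89 for Serpina3n, −2.29 for Ccl2, −1.29 for Plac8 and −1.04 for Il17ra, and the calls of Crabp2 and Il17ra were lost in 10 of 11 settings. Between Eln KO and Lox KO it differed for Eln alone, by −6.71. No Efemp2 or Lox array was left out in these settings.

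Probe sets that the annotation gives no gene, or several genes, were not used above. Of 5337 tested probe sets without a gene, 6 were higher and 1 lower in Eln KO, and of 975 with several genes, 4 were higher and 0 lower. Probe set 17549150 read 4.33, 4.23, 4.61 and 4.98 in WT and 9.82, 9.89, 10.03 and 10.29 in KO, a difference of 5.47 ± 0.14 (limma adjusted p = 2.84e-06). Its level stood at 9.79 to 10.39 in Eln KO and 4.14 to 5.18 in Eln WT at P1, at 7.79 to 10.67 in Lox KO and 3.67 to 4.79 in Lox WT, and at 4.27 to 5.18 in Efemp2 KO, the last 3 over both ages. Probe set 17549062 differed by 4.99 and also read higher in Lox KO, at 7.16 to 10.48 against 4.02 to 5.15 in Lox WT. Probe sets 17549584 and 17549854, which hold identical values, differed by 3.11, and the identical 17549586 and 17549856 by 2.95. In Lox KO 17549584 read 6.92 to 8.66, within the Lox WT range of 6.21 to 8.62 apart from its top. Probe sets 17254743, 17254745, 17254747 and 17254749, identical and annotated to 4 copies of the small RNA gene Rnu3b, differed by 1.585. They read 9.43 to 9.67 in WT and 10.83 to 11.57 in KO. At P1 these probe sets read 11.28 to 12.49 in Eln WT and 10.77 to 12.3 in Eln KO. Over both ages they read 10.18 to 12.37 in Efemp2 WT and 10.46 to 12.44 in Efemp2 KO. The Lox ranges were 9.107 to 10.66 in WT and 9.406 to 12.24 in KO. Probe set 17327989 was lower, by 2.19 log2 units, at 10.38 to 10.89 in WT and 8.21 to 8.62 in KO. At P1 its ranges overlapped, at 9.33 to 10.63 in Eln WT and 9.14 to 9.45 in Eln KO.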

How the results depend on the processing

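The count of called genes depended on the setting. Over both locations it was 111, and 20 without the filter on low values, 118 after cyclic loess, 42 with all 48 arrays, 171 with trend and robust variances, 158 with 4 group means and 19 to 214 with 1 array left out. In AA, where it was 42, the first 4 of these settings gave 16, 48, 21 and 134, and omitting single arrays 8 to 79. In DA, where it was 16, they gave 8, 17, 8 and 85, and omitting single arrays 4 to 34. The difference between DA and AA had 0 calls in every setting run. The change of effect from E17.5 to P1 was called for 10 genes, 13 after cyclic loess, 97 with all 48 arrays (87 higher) and 1 to 6 with 1 array left out. Eln less Efemp2 was called for 6 genes, 2 with all 48 arrays and 1 to 5 with 1 array left out, and Eln less Lox for 1 gene, 3 after cyclic loess, 2 with all 48 arrays and 1 to 2 with 1 array left out. For the contrasts with P1, Efemp2 and Lox, only Eln arrays of E17.5 were left out. The setting without the filter tests more genes, and leaving out an array leaves fewer arrays. Over both locations, the count rose without 1 array and fell without the others. The cause of these changes was not tested. Over 162 named results and their alternatives, 413 of 2336 values lost a call and 20 gained one, and 0 results called in the main fit reversed. The other 1903 were counted as unchanged. They include uncalled genes whose sign changed between settings, such as Tyrobp at −0.371 to 0.359.

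With the replicate number as a fixed block 30 genes were called over both locations, 24 in AA, 8 in DA, 15 for the change with age, 6 for Eln less Efemp2 and 1 for Eln less Lox, and as a random block (correlation −0.277) 369 were called over both locations. Deviations of KO and WT arrays of the same number correlated at 0.0876 in AA and 0.084 in DA, and AA with DA arrays at −0.204 in KO and 0.0398 in WT. With 2 arrays per group, these values cannot tell whether arrays of the same number came from the same animals. With 2 arrays per group, small differences in weakly detected genes are out of reach, and levels under the filter (10191 genes) were not tested.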
